A study of Mus musculus with 12 samples.

Results

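The nuclear-encoded genes of the mitochondrial respiratory chain were taken as all rows whose symbol starts with Nduf, Uqcr, Atp5, Cox4i, Cox5, Cox6, Cox7 or Cox8, together with Sdha, Sdhb, Sdhc, Sdhd, Cyc1 and Cycs. The rule matched 91 of the 22310 gene symbols in the count files. Of these, 87 had 10 or more reads over all libraries and were kept. Ndufs5 and Ndufs6 had 0 reads, Cox7b2 had 1 read and Cox8c had 2 reads in total. By role, the 87 genes comprised 34 subunits of complex I with 4 of its assembly factors, 4 subunits of complex II, 9 of complex III, 17 of complex IV, 15 of complex V, cytochrome c (Cycs), the supercomplex factor Cox7a2l, and the pair Atp5s and Atp5sl. The filter on low counts left 86 for testing; Atp5g2, with 55 reads over all libraries, did not pass it. The 13 subunit genes of the mitochondrial genome are not analysed here.

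Total RNA was sequenced from satellite cells, the resident stem cells of skeletal muscle, isolated from C57BL/6 mouse hindlimbs 3 days after injury with 50 µl of 1.2% barium chloride given at about 20 sites. There were 4 groups of 3 libraries: old Hoxa9 knock-out (22 to 28 months), young Hoxa9 knock-out (3 to 4 months), old wild type (22 to 28 months) and young wild type (3 to 4 months). All 12 libraries came from injured muscle. The labels name neither the knockout allele nor the number of animals behind a library, so the p-values below cover only the spread between libraries, which may be technical.

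The respiratory chain passes electrons from NADH (complex I) and succinate (complex II) through complex III and cytochrome c to oxygen at complex IV, and complex V, the ATP synthase, uses the resulting proton gradient to make ATP. Most subunits are encoded in the nucleus, translated in the cytosol and imported, and several subunits of complex IV exist as a widely expressed isoform and one of heart and skeletal muscle or testis. Quiescent satellite cells hold few mitochondria and are known to build more as they activate.

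Reads assigned to genes numbered 4193433 to 20337015 per library, and respiratory chain genes took 0.813% to 1.29% of them. The satellite cell markers Pax7, Myf5, Myod1 and Itga7 were present in every library, with Pax7 at 169 to 243 CPM (read counts normalised to TMM-scaled library sizes) in the knockout libraries and at 201 to 397 CPM in wild type. Hoxa9 itself had 4.55 to 7.21 CPM in knockout and 7.96 to 22.5 CPM in wild type, so its reads did not disappear in the knockout libraries. Several measures of the libraries differed between groups, some with genotype and some in 1 age or in single libraries. Across all genes, the level relative to the other libraries fell with GC content in the 6 knockout libraries (Spearman's rho -0.541 to -0.133) and rose with it in the 6 wild-type libraries (0.235 to 0.498). Lars2 reached 25.1% of gene reads in old knockout replicate 3, against at most 0.11% in wild type. The summed level of 9 satellite cell and myoblast markers was 6162 to 6674 CPM in old knockout against 6653 to 7276 CPM in old wild type, and, with no overlap, 5833 to 6725 CPM in young knockout against 7358 to 8626 CPM in young wild type. The 4 erythroid markers summed to 41.6 to 184 CPM in old knockout against 86.4 to 136 CPM in old wild type, and to 34.4 to 63.4 CPM in young knockout against 105 to 230 CPM in young wild type, with Hba-a1 at 0 in all 4 groups. The 9 macrophage and monocyte markers summed to 17.1 to 74.4 CPM in old knockout against 113 to 120 CPM in old wild type, and to 18.5 to 139 CPM in young knockout against 20.9 to 37.8 CPM in young wild type. The summed level of 6 fibroblast markers was 3622 to 4805 CPM in old knockout against 2669 to 3159 CPM in old wild type, and 3668 to 4347 CPM in young knockout against 5171 to 6110 CPM in young wild type, with none at 0. For 12 mature myofibre markers the sums were 1396 to 3659 CPM in old knockout against 2478 to 2540 CPM in old wild type, and 958 to 1606 CPM in young knockout against 1660 to 2495 CPM in young wild type, again with none at 0. The 5 tendon markers summed to 57.2 to 602 CPM in old knockout against 28.8 to 40.25 CPM in old wild type. In young knockout they summed to 92.6 to 204.5 CPM against 53.7 to 78.4 CPM in young wild type, with no overlap at either age. The 5 choroid plexus markers summed to 1.41 to 3.48 CPM in knockout, with Ttr at 0, and to 77.0 to 4451 CPM in wild type. The Y-linked gene Ddx3y had 125 and 151 CPM in old knockout replicates 2 and 3 and at most 5.11 CPM elsewhere. The part of these differences in the results that follow was not tested, and in bulk RNA fewer cells of a type cannot be told apart from less RNA per cell.

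Levels within the chain spanned a wide range. Per kilobase of transcript, the 87 genes averaged 0.973 to 915 CPM with a median of 75.5 CPM per kilobase. Atp5b, the catalytic beta subunit of ATP synthase, was the highest at 915 CPM per kilobase, followed by Cox4i1, the widely expressed subunit 4 of complex IV (641 CPM per kilobase), the ATP synthase alpha subunit Atp5a1 (575 CPM per kilobase) and the complex III hinge protein Uqcrh (434 CPM per kilobase). Atp5b and Atp5a1 together gave 31.2% of the CPM of all 87 genes. The supercomplex factor Cox7a2l, at 129 CPM per kilobase, passed the test in no comparison.

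The summed level of the chain overlapped between all 4 groups. The 87 genes together reached 10179, 10698 and 10754 CPM in old knockout and 8001, 10312 and 8972 CPM in young knockout. They reached 11167, 9077 and 11343 CPM in old wild type, and 8674, 12157 and 10768 CPM in young wild type. Young knockout held the lowest library and young wild type both the second lowest and the highest. By complex, complex V averaged 3926 ± 511 CPM in young knockout and 4447 ± 696 CPM in young wild type (SD, n = 3 each), and complex I averaged 2086 ± 262 CPM in young knockout and 2458 ± 423 CPM in young wild type. Complex II was the one of the 5 complexes whose young groups did not overlap: its 4 genes summed to 505, 581 and 489 CPM in young knockout, against 584, 672 and 693 CPM in young wild type. That gap between the nearest libraries was small beside the spread within either group.

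**Figure D1:**
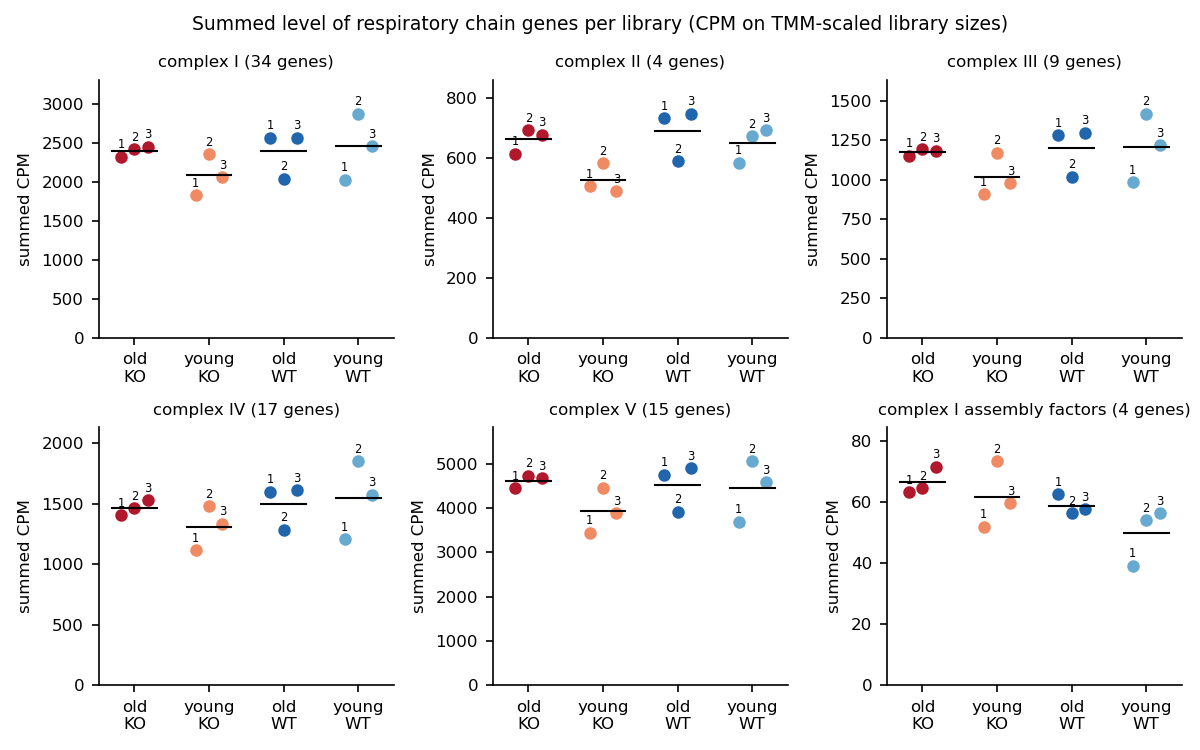
Summed CPM (vertical axis, linear from 0) of the members of each complex and of the complex I assembly factors in every library, by group along the horizontal axis; points are libraries labelled with their replicate number and black lines are group means. Old wild type replicate 2 and young wild type replicate 1 lie below their group's other libraries in complexes I, II, III, IV and V, and old knockout libraries lie close together.

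Within a group, most of these genes were high or low in the same library. Of 72 members averaging over 10 CPM, 70 had their lowest young wild-type value in replicate 1 and 64 their highest in replicate 2. In old wild type 68 had their lowest value in replicate 2. In young knockout 56 were highest in replicate 2 and 52 lowest in replicate 1. The median coefficient of variation between replicates was 7.2% in old knockout, 16.0% in young knockout, 13.1% in old wild type and 18.8% in young wild type. Members are therefore not independent replicates of a condition.

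In old knockout against old wild type, fold changes of respiratory chain genes were centred on 0: 43 were positive and 43 negative, with a median log2 fold change of -0.01 beside -0.02 over all 13540 genes tested. With edgeR's quasi-likelihood test and Benjamini-Hochberg adjustment over all genes at 0.05, 4 members rose and 3 fell, 8.14% of the 86, where 16.7% of all genes passed (9.52% higher and 7.21% lower). The 4 that rose were Ndufb4, Cycs, Cox6c and Uqcrfs1, and the 3 that fell were Atp5h, Atp5sl and Ndufa8.

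In young knockout against young wild type, 65 of 86 log2 fold changes were negative, with a median of -0.26 beside -0.02 over all genes. Here 10 members fell and 3 rose, 15.1% of the 86, where 20.9% of all genes passed (10.9% higher and 10% lower). Subunits of complex I (Ndufa2, Ndufa8, Ndufa11, Ndufa13 and Ndufb7), complex II (Sdha), complex III (Cyc1 and Uqcrq) and complex IV (Cox6b1 and Cox6b2) fell. Ndufaf4, Ndufb4 and Cox6c rose. Complex V had no member past the threshold in the young comparison, although 11 of its 14 tested members had negative values. Cox6c, Ndufb4 and Ndufa8 passed at both ages and in the same direction. Groups did not overlap in CPM for any of these calls; that was so for 13 members higher and 12 lower in the old comparison, where 42% of all genes did not overlap (21.6% higher and 20.4% lower). In the young comparison it was so for 6 members higher and 17 lower, where 35.7% of all genes did not overlap (16% higher and 19.6% lower).

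**Figure D2:**
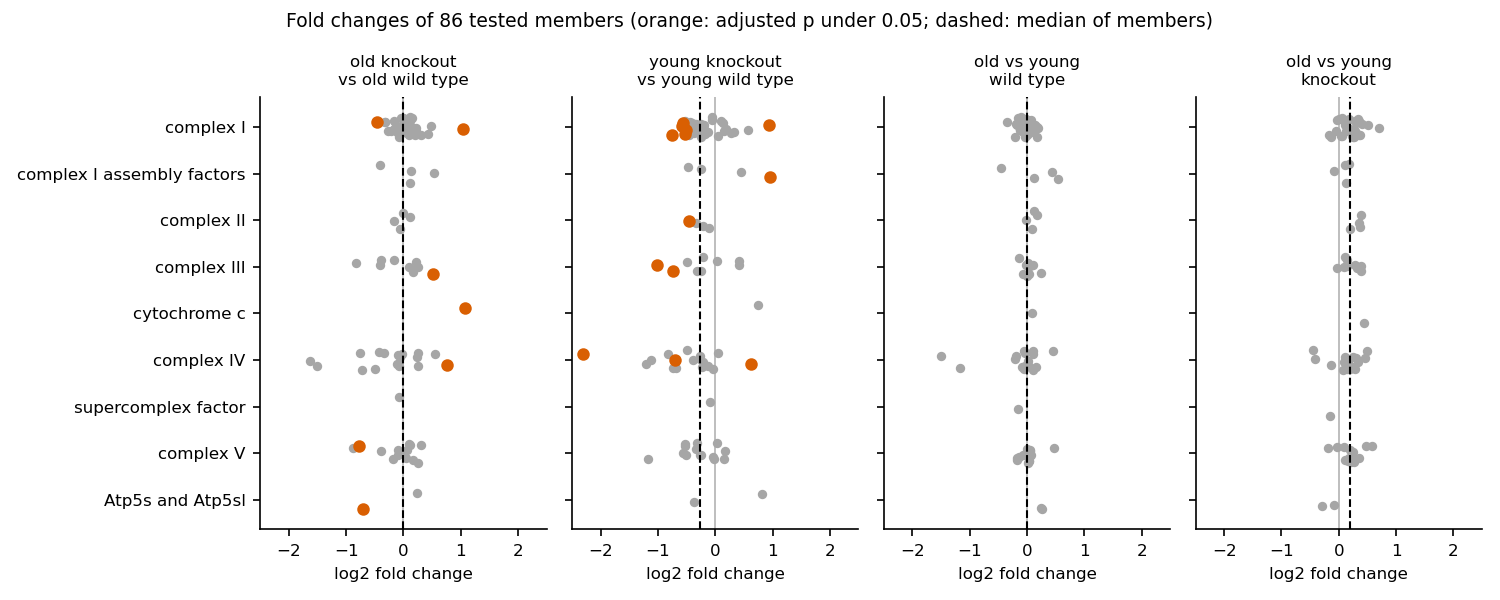
Log2 fold change (horizontal axis) of the 86 tested members in 4 comparisons, by class down the vertical axis; each point is a gene, orange where the adjusted p is under 0.05, and the dashed line is the median of the members. The median lies at -0.01, -0.26, 0.01 and 0.20 from left to right, and no gene passed in either comparison of old with young.

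Upstream sequences are given for 4 of the called genes, 2 that fell and 2 that rose in young knockout, to show the motifs of factors known to bind promoters of respiratory chain genes; all 4 were picked because they hold one. They are the 250 bases before the annotated start in RefSeq's GRCm38.p6 table, written 5′ to 3′ on the gene's strand, with capitals marking the motif. Ndufa8 lies at chr2:36049339-36049588 on the minus strand, Cox6b1 at chr7:30626115-30626364 on the minus strand, Ndufb4 at chr16:37654369-37654618 on the minus strand and Ndufaf4 at chr4:24897833-24898082 on the plus strand.
Ndufa8: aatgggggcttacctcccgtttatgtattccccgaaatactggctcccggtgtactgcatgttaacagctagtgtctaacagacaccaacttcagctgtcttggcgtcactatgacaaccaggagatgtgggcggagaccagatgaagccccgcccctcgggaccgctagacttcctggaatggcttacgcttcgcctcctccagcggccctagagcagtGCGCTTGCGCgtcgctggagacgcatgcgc
Cox6b1: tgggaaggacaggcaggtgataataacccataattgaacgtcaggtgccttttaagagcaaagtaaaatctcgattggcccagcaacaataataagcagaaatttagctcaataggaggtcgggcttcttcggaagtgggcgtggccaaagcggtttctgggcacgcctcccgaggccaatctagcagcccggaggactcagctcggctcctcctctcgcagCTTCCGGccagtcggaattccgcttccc
Ndufb4: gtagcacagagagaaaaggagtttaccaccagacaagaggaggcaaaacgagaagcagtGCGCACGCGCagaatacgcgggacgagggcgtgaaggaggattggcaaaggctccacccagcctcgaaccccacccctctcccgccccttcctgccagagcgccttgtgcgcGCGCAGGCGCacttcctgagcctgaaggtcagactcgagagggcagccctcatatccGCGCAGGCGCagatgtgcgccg
Ndufaf4: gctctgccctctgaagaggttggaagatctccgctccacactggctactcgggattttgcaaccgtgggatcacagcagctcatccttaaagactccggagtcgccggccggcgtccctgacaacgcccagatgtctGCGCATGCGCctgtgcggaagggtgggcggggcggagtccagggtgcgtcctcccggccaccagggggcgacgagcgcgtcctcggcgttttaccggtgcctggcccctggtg
Ndufa8, Ndufb4 and Ndufaf4 hold the nuclear respiratory factor 1 motif (GCGC, any base, then TGCGC, on either strand), which begins 30 bases before the start in Ndufa8, 191, 79 and 22 bases before it in Ndufb4, and 113 bases before it in Ndufaf4. Cox6b1 holds the GABP motif (CCGGAAG on either strand) 28 bases before the start. Over the 78 windows of the 72 members in the table, searched from 250 bases before to 50 after the start, the nuclear respiratory factor 1 motif was in 21.8% of windows against 4.6% of all 32851 windows, and the GABP motif was in 21.8% against 8.86%. The YY1 motif (AAGATGGCG on either strand) was in 10.3% of member windows against 1.4% of all windows. Member windows were richer in GC (median 58.5% against 52.7%), and among all windows between 54.1% and 62.3% GC the shares were 6.67%, 13.96% and 2.28%. At least one motif was found in 35 members, 48.6% of those with a window. Of the called genes with a window, 2 of the 4 that rose and 7 of the 9 that fell held one.

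Complex I. Ndufa8, an accessory subunit with paired-cysteine motifs on the intermembrane side, had 35.8, 44.8 and 34.9 CPM in old and 28.6, 32.1 and 31.6 CPM in young knockout libraries, against 54.9, 46.5 and 58.6 CPM in old and 46.5, 54.9 and 54.1 CPM in young wild-type libraries. Every knockout library lay below every wild-type library. Its log2 fold change was -0.75 ± 0.14 (SE) in the young comparison (edgeR adjusted p = 0.00341), which held when any 1 library was left out. In the old comparison it was -0.46 ± 0.14 (edgeR adjusted p = 0.042), and that call was lost without old knockout 1 or 3, young knockout 2, old wild type 1 or 3, or young wild type 2 or 3 (adjusted p 0.0546 to 0.177).

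Ndufb4, an accessory subunit of the membrane arm, went the other way. It had 13.5, 12.6 and 15.4 CPM in old and 8.62, 14.4 and 11.9 CPM in young knockout libraries, against 5.91, 6.96 and 7.15 CPM in old and 5.14, 7.71 and 5.53 CPM in young wild-type libraries. All 6 knockout libraries lay above all 6 wild-type libraries. The log2 fold change was 1.04 ± 0.23 (SE) in the old comparison (edgeR adjusted p = 0.011) and 0.94 ± 0.24 in the young one (edgeR adjusted p = 0.0142). Without old wild type 1 the old call was lost (adjusted p = 0.0531), and the young call was lost without young knockout 2 (0.0567), young wild type 1 (0.0541) or young wild type 3 (0.0522).

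The other complex I subunits that fell in young knockout did so by 0.52 to 0.57 on the log2 scale. Ndufb7, an accessory subunit on the intermembrane side, had 39.2, 35.9 and 42.5 CPM in young knockout against 46.8, 71.9 and 56.5 CPM in young wild type (log2 fold change -0.57 ± 0.16 SE, edgeR adjusted p = 0.0238). Ndufa13, also known as GRIM-19, had 63.8, 88.8 and 91.9 CPM in young knockout against 96.9, 150 and 115 CPM in young wild type (-0.57 ± 0.19, edgeR adjusted p = 0.0444). Ndufa2, a peripheral-arm subunit with a thioredoxin-like fold, had 48.7, 58.2 and 54.7 CPM in young knockout against 60.9, 93.8 and 78.6 CPM in young wild type (-0.53 ± 0.17, edgeR adjusted p = 0.0396). In each of the 3 genes the lowest young wild-type library was replicate 1, and it lay close to the highest young knockout library. Antisense transcripts of other genes overlap 30.0% of the Ndufa13 transcript; without a stated strand setting of the counting, reads of the gene and its antisense partner cannot be told apart.

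Ndufa11, a membrane-arm subunit, had 23.7, 21.1 and 22.4 CPM in young knockout against 24.8, 39.7 and 32.3 CPM in young wild type, and 35.3, 33.7 and 41.3 CPM in old knockout against 29.3, 26.8 and 32.6 CPM in old wild type. It fell in young knockout (log2 fold change -0.52 ± 0.17 SE, edgeR adjusted p = 0.0481), while its value in the old comparison was 0.30 ± 0.17 and did not pass (edgeR adjusted p = 0.231). With offsets for GC content and length the old value passed (0.66, edgeR adjusted p = 0.0124) and the young one did not (-0.02, edgeR adjusted p = 0.956). Among these calls it was the least stable one. It was lost without each of 11 of the 12 libraries in turn, all except young wild type 1 (adjusted p up to 0.203). Ndufa13 lost its call without 9 libraries, all except young knockout 3, old wild type 2 and young wild type 1 (up to 0.201), and Ndufa2 without 9, all except old knockout 2, old wild type 2 and young wild type 1 (up to 0.177). Ndufb7 lost it without young knockout 1 or 2 or young wild type 2 or 3 (up to 0.123).

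Among the complex I assembly factors, Ndufaf4 had 35.2, 24.5 and 32.0 CPM in old and 23.8, 36.8 and 23.1 CPM in young knockout libraries, against 21.3, 21.4 and 20.6 CPM in old and 11.7, 15.4 and 16.4 CPM in young wild-type libraries. Knockout libraries lay above wild type at each age, and old wild type lay above young wild type. It rose in young knockout (log2 fold change 0.95 ± 0.21 SE, edgeR adjusted p = 0.00706), a call that no left-out library ended but that was lost with offsets for GC content and length (0.23, edgeR adjusted p = 0.445). In old knockout the value was 0.53 ± 0.21 and did not pass (edgeR adjusted p = 0.0931).

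Complex II. Sdha, the flavoprotein that oxidises succinate, had 217, 197 and 189 CPM in young knockout against 267, 244 and 314 CPM in young wild type, with no overlap. It fell by 0.45 on the log2 scale (SE 0.14, edgeR adjusted p = 0.0352), and the call was lost without old knockout 1 or 3, young knockout 2 or 3, old wild type 3, or young wild type 1 or 3 (adjusted p 0.0521 to 0.161). The iron-sulfur subunit Sdhb (-0.33 ± 0.16), and the membrane anchors Sdhc (-0.11 ± 0.14) and Sdhd (-0.21 ± 0.18), did not pass in that comparison (edgeR adjusted p 0.16, 0.61 and 0.448). In the old comparison none of the 4 passed, with log2 fold changes of -0.17 to 0.11.

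Complex III and cytochrome c. Cyc1, the cytochrome c1 subunit that hands electrons to cytochrome c, had 110, 131 and 111 CPM in old and 89.1, 93.2 and 86.7 CPM in young knockout libraries, against 160, 139 and 167 CPM in old and 126, 170 and 154 CPM in young wild-type libraries. All young knockout values lay below all young wild-type values, and the log2 fold change of -0.74 ± 0.14 (SE) had the smallest p of the chain there (edgeR adjusted p = 0.00276). No left-out library ended that call. In the old comparison the groups again did not overlap, but the value of -0.40 ± 0.13 did not pass (edgeR adjusted p = 0.0548).

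Uqcrq, a small subunit also called ubiquinone-binding protein QP-C, had 23.9, 23.4 and 33.8 CPM in young knockout against 38.7, 69.1 and 55.8 CPM in young wild type (log2 fold change -1.02 ± 0.28 SE, edgeR adjusted p = 0.0208). Its call was lost without young knockout 1 or 2 or young wild type 2 or 3 (adjusted p 0.0561 to 0.109). Uqcrfs1, the Rieske iron-sulfur protein of the same complex, had the opposite sign. It had 162, 142 and 160 CPM in old knockout against 112, 91.3 and 122 CPM in old wild type, a rise of 0.51 ± 0.15 on the log2 scale (edgeR adjusted p = 0.0321) that was lost without old knockout 1 or 3 or old wild type 1 or 2 (0.0738 to 0.127). In the young comparison it was 0.42 ± 0.15 and did not pass (edgeR adjusted p = 0.0563).

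Cycs, the electron carrier cytochrome c, had 9.01, 7.43 and 11.04 CPM in old knockout against 3.75, 4.07 and 4.97 CPM in old wild type. It rose by 1.08 ± 0.32 (SE) on the log2 scale (edgeR adjusted p = 0.0362), and the call was lost without old knockout 1 or 3 or any 1 of the 3 old wild-type libraries (adjusted p 0.0625 to 0.125). With 5.14, 9.37 and 5.47 CPM in young knockout against 2.52, 5.09 and 4.65 CPM in young wild type, the young value was 0.74 ± 0.33 and did not pass (edgeR adjusted p = 0.122).

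Complex IV. Cox6c, a nuclear subunit with 1 transmembrane helix, had 87.3, 94.2 and 114 CPM in old and 76.6, 109 and 81.2 CPM in young knockout libraries, against 62.8, 50.1 and 61.2 CPM in old and 50.3, 63.9 and 58.3 CPM in young wild-type libraries. Every knockout library was above every wild-type library. It rose by 0.76 ± 0.16 (SE) in old knockout (edgeR adjusted p = 0.00965) and by 0.63 ± 0.16 in young knockout (edgeR adjusted p = 0.0162) on the log2 scale. The old call was lost without old knockout 3 (0.0511), and the young one without young knockout 2 (0.0564) or young wild type 1 (0.0593).

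Cox6b1, the subunit on the intermembrane face where cytochrome c docks, had 115, 149 and 138 CPM in young knockout against 170, 267 and 214 CPM in young wild type, and 135, 170 and 171 CPM in old knockout against 238, 176 and 223 CPM in old wild type. It fell in young knockout (log2 fold change -0.69 ± 0.18 SE, edgeR adjusted p = 0.0161), with the call lost without young knockout 1 (0.0523) or young wild type 2 (0.083). In the old comparison it was -0.42 ± 0.18 and did not pass (edgeR adjusted p = 0.119). Cox6b2, its testis isoform, had only 0.58, 0.39 and 0.50 CPM in young knockout against 1.21, 2.78 and 3.61 CPM in young wild type. That gave the largest fold change among the calls (log2 fold change -2.31 ± 0.57 SE, edgeR adjusted p = 0.0131), lost without young knockout 2 (0.0621) or young wild type 3 (0.0577).

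Complex V. Atp5h, subunit d of the peripheral stalk, had 30.8, 29.0 and 30.5 CPM in old knockout against 57.0, 46.9 and 50.3 CPM in old wild type. It fell by 0.78 on the log2 scale (SE 0.20, edgeR adjusted p = 0.0208), and the call was lost without old knockout 2 or 3 or old wild type 1 or 3 (adjusted p 0.0505 to 0.0796). In the young comparison, with 26.5, 34.4 and 43.2 CPM in knockout against 39.8, 65.9 and 46.9 CPM in wild type, the groups overlapped and the value of -0.56 ± 0.20 did not pass (edgeR adjusted p = 0.0618). The 2 largest contributors did not pass at either age. Atp5b had log2 fold changes of -0.06 ± 0.16 in old and -0.27 ± 0.16 in young knockout, and Atp5a1 of 0.17 ± 0.16 and -0.01 ± 0.16 (SE; edgeR adjusted p 0.237 to 0.962).

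Atp5sl, whose symbol groups it with ATP synthase but whose product is named Dmac2, a factor of complex I membrane-arm assembly, had 17.4, 14.7 and 15.1 CPM in old knockout against 27.9, 27.8 and 21.3 CPM in old wild type. It fell by 0.70 on the log2 scale (SE 0.18, edgeR adjusted p = 0.0211), lost without old knockout 2 or 3 or old wild type 1 or 2 (adjusted p 0.0633 to 0.0829). Over all 20 calls, 3 held whichever library was left out: Cyc1, Ndufa8 and Ndufaf4 in the young comparison, of which Ndufaf4 did not pass with offsets for GC content and length. Calls over all genes changed in the same fits. In the old comparison 516 to 1914 genes were higher and 263 to 1230 lower, against 1289 and 976 with all libraries. In the young one 774 to 1831 were higher and 563 to 1376 lower, against 1477 and 1354.

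**Figure D3:**
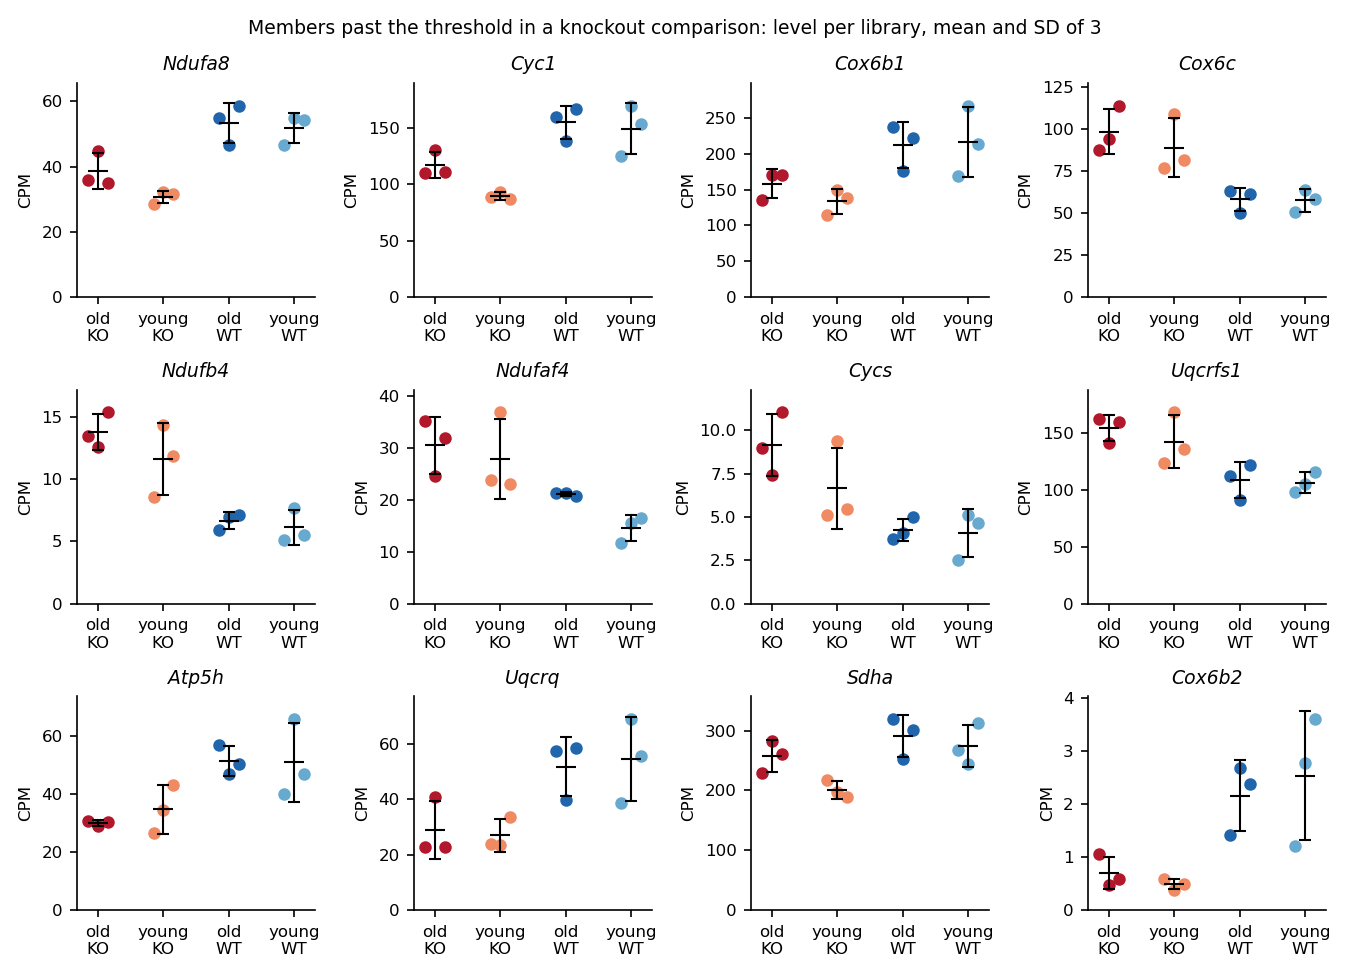
CPM (vertical axis, linear from 0) in each library for 12 members past the threshold in a knockout comparison, by group along the horizontal axis; points are libraries in replicate order, bars the mean and SD of 3. Ndufa8 lies lower and Cox6c and Ndufb4 higher in all 6 knockout libraries than in all 6 wild-type libraries.

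Near-identical copies affect what can be read from some of these genes. Members were set against all GENCODE M21 transcripts at 95% identity or more over at least 50 bases. Of the 87 members, 21 had 80% or more of their coding sequence in other genes. A gene counted as matched for such a match anywhere in the member's transcript, so it need not hold any of the coding sequence. For most of the 21, every matched gene was a pseudogene. The exceptions were Cycs (3 pseudogenes of 76 matched genes), Ndufab1 (2 of 6), Atp5l (9 of 10), Cox5b (0 of 2) and Uqcr10 (0 of 1). Cox6c, Ndufb4, Cycs and Atp5h were among the 21, each with its whole coding sequence found in other genes. Copied genes made up 3 of the 4 members that rose in old knockout and 2 of the 3 that rose in young knockout, against 1 of the 3 that fell in old knockout (Atp5h) and 0 of the 10 that fell in young knockout. The 21 had a median of 42.1 CPM per kilobase and the other 66 of 82.5 CPM per kilobase. Ndufs5, at 0 reads, has 100% and Ndufs6, at 0 reads, 99.7% of its coding sequence in another gene, and 6 of the 16 members under 10 CPM per kilobase were copied ones, including Cox7c, Atp5l and Ndufab1. The counter listed alignments that were not unique on a summary line of their own, at 1.27 to 7.54 per read assigned to a gene. The highest value was in old knockout replicate 3. No source used here states the counting setting for reads with several alignments, so values of these 21 genes are uncertain. Without them, 1 member rose and 2 fell in old knockout, and 1 rose and 10 fell in young knockout.

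**Figure D4:**
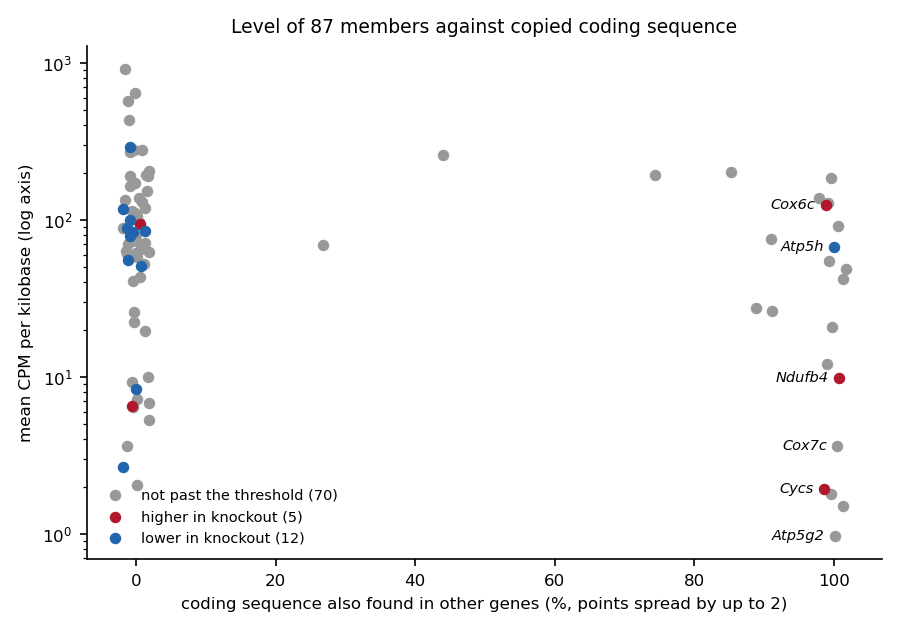
Mean CPM per kilobase over 12 libraries (vertical log axis) of 87 members against the share of coding sequence also found in other genes (horizontal axis, percent); red marks the 5 genes higher and blue the 12 lower in a knockout comparison, grey the other 70. Members lie mostly near 0% or 100%, and Cox6c, Ndufb4, Cycs and Atp5h lie at 100%.

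The base composition of the called members was also described. Over the 86 tested members, the young knockout log2 fold change fell with the GC content of the transcript (Spearman's rho -0.451, a description across genes that share the same libraries), and the old one less so (-0.218). The 10 members that fell in young knockout had GC contents of 48.5% to 60.4% with a median of 55.3%. The 3 that rose there had 39.5% (Ndufaf4), 52.2% (Ndufb4) and 56.4% (Cox6c), the last above the median of those that fell. In old knockout the 3 that fell had 50.6% to 54.4% and the 4 that rose 40.8% to 56.4%. The ranges of rises and falls overlapped at both ages. With offsets for GC content and length in each library, the median young log2 fold change of the members moved to -0.10, with 4 members higher and 7 lower, 12.8% of the 86, where 7.6% of all genes passed (3.35% higher and 4.25% lower). In the old comparison the median was 0.08, with 7 higher and 3 lower, 11.6% of the 86, where 9.61% of all genes passed (5.18% higher and 4.42% lower). The offsets turned the sign of the trend among the members and did not remove it: Spearman's rho with GC content was then 0.207 in the young and 0.408 in the old comparison. Ndufb7 went to -0.05, Ndufa13 to -0.09, Ndufa11 to -0.02 and Ndufaf4 to 0.23 in the young comparison, and none of these passed. Ndufa2 (-0.30), Uqcrq (-0.51) and Cox6b2 (-1.92) did not pass either, nor did Cycs (0.60) and Ndufa8 (-0.22) in the old one. The calls that passed with offsets were Cox6c and Ndufb4 at both ages, Ndufa8, Cyc1, Cox6b1 and Sdha in young, and Atp5h, Atp5sl and Uqcrfs1 in old knockout. Cox6c was at 1.08 in old and 1.06 in young knockout with offsets. Members that passed with the offsets alone included Ndufa11 in old knockout (0.66, edgeR adjusted p = 0.0124) and Ndufa6, an accessory subunit of complex I (0.71 in old and 0.63 in young knockout). Cox7b, a small subunit of complex IV and one of the 21 copied genes, also did (-0.43 in old and -0.65 in young knockout). Ndufa6 and Cox7b were chosen after their values were seen. The others were Cox6a1 (0.625) and Ndufs8 (0.466) in old knockout, and Ndufc1 (0.495), Ndufa1 (-0.532) and Ndufv2 (-0.709) in young knockout.

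**Figure D5:**
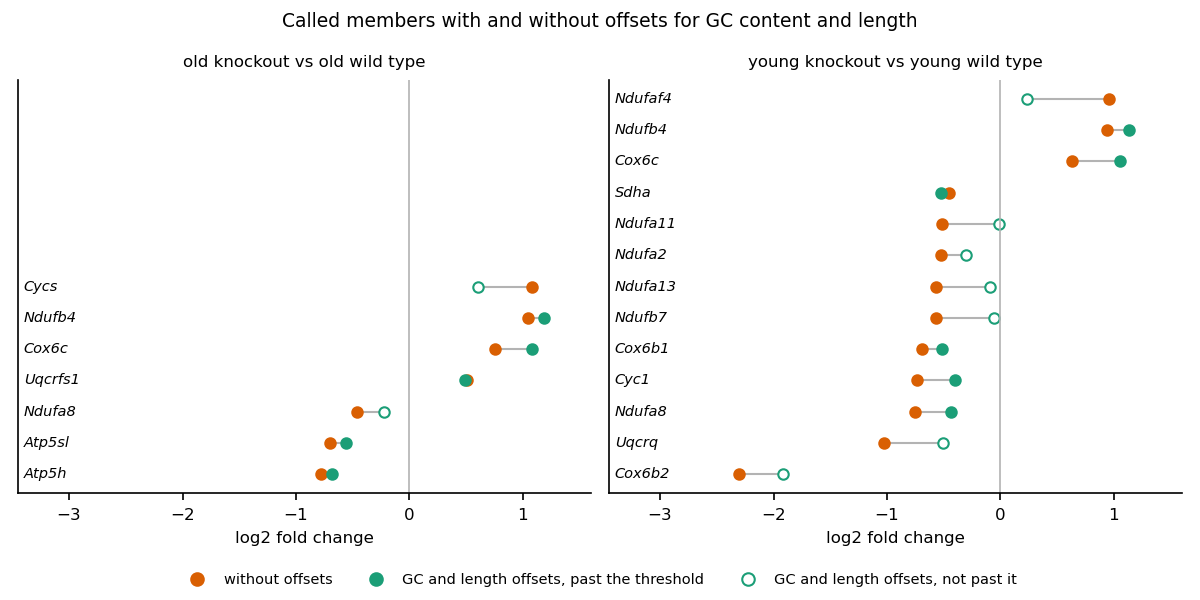
Log2 fold change (horizontal axis) of the called members without offsets (orange) and with offsets for GC content and length (green, filled where the adjusted p is under 0.05), 1 gene a row. In young knockout Ndufb7, Ndufa13 and Ndufa11 lie near 0 with offsets, and Sdha and Ndufb4 hold their values.

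In old against young wild type, no member passed with edgeR, DESeq2 or limma-voom, beside 1.06% of all genes with edgeR (0.258% higher and 0.805% lower); 4 members (4.65%) had an unadjusted p under 0.05, against 14.2% of all genes. The median log2 fold change was 0.01, with 46 positive and 40 negative values. The 2 genes with the smallest p were Cox4i2, the isoform of subunit 4 linked to low oxygen, and Ndufaf4. Cox4i2 had 1.29, 1.49 and 2.25 CPM in old wild type against 3.83, 7.41 and 3.29 CPM in young wild type (log2 fold change -1.49 ± 0.56 SE, edgeR adjusted p = 0.233). For Ndufaf4 the value was 0.54 ± 0.21 (edgeR adjusted p = 0.234). Ndufa4l2, which is known as a target of hypoxia-inducible factor, also had separate groups, with 2.83, 4.57 and 5.72 CPM in old and 10.8, 12.8 and 6.09 CPM in young wild type (-1.17 ± 0.53, edgeR adjusted p = 0.345), and was singled out after its values were seen.

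In old against young knockout, 72 of 86 log2 fold changes were positive, with a median of 0.20 beside -0.01 over all genes, and again no member passed with edgeR, DESeq2 or limma-voom. Over all genes 0.0148% passed. At an unadjusted p under 0.05 there were 10 members, all higher in old knockout, 11.6% of the members against 9.72% of all genes. Groups did not overlap for 20 members, all of them higher in old knockout, where 11.6% of all genes did not overlap (6.37% higher and 5.22% lower). Ndufa11, with the values given above, had 0.71 ± 0.17 (SE, edgeR adjusted p = 0.207) and Cyc1 had 0.39 ± 0.14 (edgeR adjusted p = 0.358). This comparison shares its libraries with the 2 knockout comparisons and is no separate evidence.

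The difference between the age effects in knockout and in wild type was tested as an interaction. It passed for no member (edgeR, DESeq2 and limma-voom; 1 member, 1.16%, at an unadjusted p under 0.05 against 9.72% of all genes), beside 0.0148% of all genes (0.00739% higher and 0.00739% lower), so the knockout effects on respiratory chain genes were not shown to differ between old and young. The smallest p belonged to Ndufa11 (0.82 ± 0.24 SE, edgeR adjusted p = 0.347) and Ndufs8, an iron-sulfur subunit of the peripheral arm (0.50 ± 0.24, edgeR adjusted p = 0.538). The median over the members was 0.20.

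Isoforms. The widely expressed form was the main one in every set. Per kilobase, Cox6a2 took at most 6.12% of the Cox6a pair, Cox7a1 at most 6.43% of its set, Cox8b at most 5.9%, Cox6b2 at most 1.85%, Cox4i2 at most 1.2% and Ndufa4l2 at most 8.2% of the pair with Ndufa4 in any library. The muscle isoforms Cox6a2, Cox7a1 and Cox8b together had 17.4, 3.28 and 4.07 CPM in old and 6.71, 5.65 and 7.45 CPM in young knockout libraries, against 13.2, 16.6 and 13.3 CPM in old and 10.6, 18.4 and 7.94 CPM in young wild-type libraries. The mature myofibre marker sum was 3659, 1396 and 1558 CPM in old and 1606, 1341 and 958 CPM in young knockout libraries, in replicate order. In wild type it was 2540, 2478 and 2483 CPM in old and 1920, 2495 and 1660 CPM in young libraries. Old knockout replicate 1 and young wild type replicate 2 were the highest of their groups for both sums. Young knockout replicate 3 had the highest isoform sum of its group with its lowest marker sum. The marker sums of old wild type lay close together. How the isoform and marker sums relate was not tested. Neither Cox6a2 nor Cox7a1 passed in any comparison, and Cox8b, with groups that did not overlap at either age, had -1.51 ± 0.57 in old and -1.21 ± 0.57 in young knockout (SE; edgeR adjusted p 0.0818 and 0.146). Of the 3 genes for ATP synthase subunit c, which encode the same mature protein, Atp5g3 was the highest at 278 CPM per kilobase, against 12 CPM per kilobase for Atp5g1 and 0.973 CPM per kilobase for Atp5g2, both with copied coding sequence.

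Genes around the chain were examined in 3 lists. Among assembly factors outside the rule, 29 were tested; 1 rose and 1 fell in old knockout, and 2 rose and 4 fell in young knockout. That was 6.9% of the list in old and 20.7% in young knockout, where 16.7% and 20.9% of all genes passed, and its median log2 fold changes were 0.01 and -0.15 against -0.02 over all genes at either age. Usmg5, a small protein of the ATP synthase dimer, had 0.60, 0.74 and 0.87 CPM in old and 0.99, 1.93 and 0.50 CPM in young knockout libraries, against 5.11, 3.58 and 2.04 CPM in old wild type and 2.62, 6.48 and 3.93 CPM in young wild type. It fell at both ages, with a log2 fold change of -2.29 ± 0.55 (SE, edgeR adjusted p = 0.0145) in old and -1.82 ± 0.51 (edgeR adjusted p = 0.0228) in young knockout. Tmem70, an assembly factor of complex V, rose in old knockout (0.85 ± 0.23, edgeR adjusted p = 0.0243). In young knockout the complex III factor Ttc19 rose (0.79 ± 0.14, edgeR adjusted p = 0.00208), as did Lrpprc, which stabilises mitochondrial mRNA (0.55 ± 0.12, edgeR adjusted p = 0.00593). Bcs1l, which inserts the Rieske protein, fell (-0.85 ± 0.20, edgeR adjusted p = 0.00888). With offsets for GC content and length, Usmg5 (-2.48 and -2.03 in old and young), Tmem70 (0.66), Ttc19 (0.51), Lrpprc (0.38) and Bcs1l (-0.69) passed. Cox10 (-0.53) and Atpaf2 (-0.52), which had also fallen in young knockout, did not. The copy search covered only members of the chain, so copies of Usmg5 and the other listed genes were not examined.

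Of 19 biogenesis regulators tested, 1 rose and 5 fell in old knockout, and 3 rose and 4 fell in young knockout. That was 31.6% of the list in old and 36.8% in young knockout, where 16.7% and 20.9% of all genes passed, and its median log2 fold changes were 0.09 and 0.10. Sirt1, a deacetylase of the coactivator PGC-1alpha, had 80.4, 65.1 and 83.7 CPM in old knockout and 69.5, 92.3 and 99.1 CPM in young knockout, against 40.9, 39.2 and 41.4 CPM in old wild type and 38.7, 35.8 and 47.4 CPM in young wild type. It rose by 0.91 ± 0.16 (SE, edgeR adjusted p = 0.00396) in old and 1.09 ± 0.16 (edgeR adjusted p = 0.00108) in young knockout on the log2 scale. The nuclear receptor Ppard fell in old (-1.07 ± 0.23, edgeR adjusted p = 0.00869) and young knockout (-1.29 ± 0.23, edgeR adjusted p = 0.00219). Pprc1, a coactivator of nuclear respiratory factor 1, fell in old (-0.83 ± 0.20, edgeR adjusted p = 0.0145) and young knockout (-0.88 ± 0.20, edgeR adjusted p = 0.00788), and Tfam, the packaging factor of mitochondrial DNA, rose in young knockout (0.66 ± 0.14, edgeR adjusted p = 0.00605). Ppargc1a is listed at 0 in all 12 libraries. With offsets for GC content and length, Sirt1 (0.57 and 0.68 in old and young), Ppard (-0.78 and -0.92) and Pprc1 (-0.61 and -0.65) passed, and Tfam (0.37) did not. Of the calls not named above, Esrrg in old knockout passed with the offsets (-2.38). Ppargc1b (-0.68 and -0.70 in old and young), Polrmt in old (-0.17), and Esrra (-0.29) and Gabpa (0.05) in young knockout did not.

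Of 18 genes of the citrate cycle and its pyruvate entry, 1 fell in old knockout, and 2 rose and 3 fell in young knockout. That was 5.56% of the list in old and 27.8% in young knockout, where 16.7% and 20.9% of all genes passed, and its median log2 fold changes were 0.00 and -0.13. Mdh2, mitochondrial malate dehydrogenase, had 130, 119 and 131 CPM in young knockout against 205, 248 and 244 CPM in young wild type (log2 fold change -0.88 ± 0.16 SE, edgeR adjusted p = 0.00263), and it also fell in old knockout (-0.49 ± 0.16, edgeR adjusted p = 0.0499). Idh2 (-0.63 ± 0.16, edgeR adjusted p = 0.0146) and Ogdh (-0.52 ± 0.15, edgeR adjusted p = 0.0273), dehydrogenases of the same cycle, fell in young knockout. Suclg2, a subunit of succinyl-CoA ligase (0.63 ± 0.20, edgeR adjusted p = 0.0364), and Dlat, a subunit of pyruvate dehydrogenase (0.42 ± 0.13, edgeR adjusted p = 0.0369), rose there. With the offsets, Mdh2 in young knockout passed (-0.55) and Idh2 (-0.32), Ogdh (-0.38), Suclg2 (0.34) and Dlat (0.27) in young and Mdh2 in old knockout (-0.24) did not. No gene of the 3 lists passed in either comparison of old with young or in the interaction (edgeR).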

How the data were processed

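Raw read counts per gene symbol, deposited by the authors with 1 library a file, were used for 12 libraries; TopHat, HTSeq, DESeq2 and build mm9 are named in the submitters' processing notes, without versions. Libraries were made with a stranded total RNA kit with ribosomal RNA removal, per the labels' protocols. The counter's summary lines were left out of library sizes and tests. Reads in no gene were 32.2% to 70.8% of uniquely aligned reads, with the highest share in old knockout replicate 3. With alignments that were not unique added to the total, the share was 13.0% to 32.2%. Counts were fitted with edgeR 4.0.16 (filterByExpr, TMM, robust quasi-likelihood, 4 group means, R 4.3.3), with p-values adjusted by Benjamini-Hochberg over all 13540 genes. DESeq2 1.42.0, limma-voom (limma 3.58.1), other scalings and filters, a replicate block, offsets for GC content and length (natural splines of 5 degrees of freedom) and left-out libraries were alternatives. The fit was tested on simulated counts that held no GC trend, so that test does not cover the GC trend of the real libraries.

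Transcript length, GC content and copies (blastn 2.17.0) were taken from GENCODE M21 on GRCm38, not mm9; 92.3% of symbols and all 87 members matched. Promoters came from RefSeq's GRCm38.p6 table. Members, gene lists and alternatives were chosen with earlier results of these data known, and the comparison without copied members after seeing the data. Text names every member past adjusted p 0.05 where at most 10 passed in a direction, the 2 smallest p where none did, the highest member of each complex (1 is not reported here), tissue isoforms, complex II, Cyc1, Cycs, and up to 3 called genes of each list. Same-numbered libraries were not paired in the main fit. Depth limits the precision of members with few reads.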

Additional observations from a re-analysis of the deposited data

Results flagged for a closer look

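Ndufa11 stood apart between ages: every old knockout library was above every old wild-type library, and every young knockout library was below every young wild-type library. The knockout effect, old minus young, was 0.82 on the log2 scale. The interaction did not pass (edgeR adjusted p = 0.347), and with offsets for GC content and length the difference was 0.68 (edgeR adjusted p = 0.3). With those offsets the old knockout value passed (0.66, edgeR adjusted p = 0.0124) and the young one did not (-0.02, edgeR adjusted p = 0.956). Its cause was not tested.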

How the results depend on the processing

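The 20 calls were recomputed under the alternatives 520 times in all; 363 of these kept the call, 157 lost it and 0 reversed. Of 154 recomputed values of 6 further results that had not passed, 1 passed and 0 reversed.

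In old knockout 4 members were higher and 3 lower. Scaling by library size only, without TMM, gave 1 higher, 11 lower and a median log2 fold change of -0.26, with the median of all genes also at -0.26. Over all genes, 359 were then higher and 1827 lower, against 1289 and 976 with TMM, and upper-quartile factors gave 1021 and 1268. In the young comparison the all-gene split was 865 and 1278 by library size only, 1796 and 1092 without Lars2, and 1477 and 1354 with TMM. In the old comparison, upper-quartile factors and DESeq2 each gave 5 lower members, beside 1268 and 1199 of all genes. The fit on only the groups compared gave 9 lower (1364 of all genes), and GC and length offsets gave 7 higher (702 of all genes). Leaving out old knockout 2 and 3, or old wild type 2 and old knockout 3, gave 0 higher and 0 lower, in fits where 92 genes were higher and 29 lower of all 14990, and 1 higher and 2 lower of all 13804; the single old knockout library left in the first of these was assumed to vary like the other groups. Members with little copied coding sequence gave 1 higher. Leaving out 1 library gave 1 to 6 higher, 0 to 6 lower and medians of -0.10 to 0.07. Over all genes these fits ranged from 516 higher and 263 lower (without old knockout 3) to 1914 higher and 1230 lower (without young knockout 3).

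In young knockout 3 members were higher and 10 lower, where 1477 of all genes were higher and 1354 lower. The fit with no filter beyond 10 counts gave 6 lower (979 of all genes) and the groups compared alone 4 (654 of all genes). The fit without Lars2 gave 6 lower (1092 of all genes), and the fit without old wild type 2 and old knockout 3 gave 5 (862 of all genes). Members with little copied coding sequence gave 1 higher. Leaving out 1 library gave 1 to 4 higher, 3 (without young knockout 2 or young wild type 3) to 16 lower (without young wild type 1), and medians of -0.43 to -0.13. Over all genes, 563 were lower without young knockout 2, 941 without young wild type 3 and 1138 without young wild type 1. In old against young wild type, the groups compared alone gave 2 lower members, in a fit where 332 genes were higher and 581 lower of all 13486.

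The labels do not state that replicate numbers pair the libraries. Deviations of same-numbered libraries from their group means correlated at -0.273 to 0.234 and of others at -0.346 to 0.306. With 3 libraries a group, these correlations cannot decide whether same-numbered libraries share a batch. With the replicate block, 6 members were lower in young knockout (1162 of all genes), and 4 with the block and GC and length offsets (384 of all genes). In old knockout the block gave 4 higher and 2 lower, beside 1013 higher and 766 lower of all genes. The cause of these changes was not tested.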
